A study of Homo sapiens with 6 samples.

Results

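GSPT2, which encodes eRF3b, was examined together with its paralog GSPT1 and with 5 other genes whose products end translation or free stalled ribosomes: ETF1, PELO, HBS1L, ABCE1 and UPF1. GSPT2 was chosen by its own values in the comparison below, expressed in the control libraries and silent in the other group, and its levels are therefore given as a description with no test. The other 6 genes were chosen by function, with earlier results of these data known. These 7 genes were found among 62348 identifiers in the count tables, by Ensembl identifier matched to a symbol, and all 7 were among the 17452 genes with enough counts to be tested. The data are counts of poly(A)-selected RNA from HEK-293T, an established line of human embryonic kidney origin with the SV40 large T antigen. There were 3 libraries labelled WT, made from cells given a non-targeting single guide RNA with the CRISPR/Cas9 system. The other 3 libraries, labelled knockout (KO), came from cells given a guide against C17orf80, a gene for a protein of mitochondrial nucleoids. Puromycin was used to select monoclonal cells of the knockout line. The sources used here do not give the number of clones, and clone and guide cannot be told apart. Separate cultures are not stated either, so each p-value measures the spread between libraries alone, and that spread may be technical.

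Gene counts summed to between 14982340 and 16278091 per library. The C17orf80 transcript did not fall in the libraries labelled knockout. It stood at 27.3 ± 1.72 CPM (SD, n = 3) in WT and 46.9 ± 8.22 CPM in the other group. It was called higher (log2 fold change 0.78 ± 0.17, SE, edgeR adjusted p = 0.0232, and 0.64 ± 0.095 without replicate 1 labelled knockout). These counts do not measure the protein, whose loss was not tested, and the label is kept only as a name. Replicate 1 labelled knockout stood apart: its log2 levels correlated at 0.932 and 0.945 with replicates 2 and 3 of its group, which correlated with each other at 0.987, and mitochondrial genes took 11.9% of its counts against 4.53% to 5.00% elsewhere. Fold changes of the genes named below, except SKIC2 and SKIC8, are therefore also given without it. Of 8 genes listed as typical of HEK-293T cells, 7 had at least 2 CPM in each library (all except LHX1). In the list of 8 blood and immune genes PTPRC, CD3E, HBG1 and CD68 had 0 counts in all 6 libraries, and the list summed to at most 5.34 CPM. The HEK-293T list summed to 386 to 404 CPM in WT and 419.7 to 552 CPM in the other group, 6 epithelial genes to 121 to 128 and 115 to 187 CPM, and 7 fibroblast genes, with COL1A2 at 0 throughout, to 45.0 to 50.8 and 25.5 to 33.4 CPM. The part of these shifts in the results below was not tested.

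Translation ends when a stop codon enters the ribosomal A site. eRF1, the ETF1 product, reads the stop codon and releases the peptide, and eRF3, a GTPase made from GSPT1 (eRF3a) or GSPT2 (eRF3b), drives that step. ABCE1 then splits the ribosome into its subunits. When a ribosome stalls without a stop codon, PELO and the GTPase HBS1L, relatives of eRF1 and eRF3, take their place. UPF1 is the RNA helicase of nonsense-mediated decay, which destroys mRNAs on which termination occurs too early. GSPT2 is an intronless retrocopy of GSPT1 on the X chromosome.

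The sequences before the starts of both eRF3 genes are shown because the paralogs share part of this region. The DNA of these cells was not examined, and the part of these sequences in the GSPT2 levels was not tested. The sequences are taken from RefSeq's annotation of GRCh38.p14 and run from 150 bases before the annotated start to the base before it. Capitals mark runs of at least 12 bases present in the start window of both genes, which spans 250 bases before and 50 after the start. The GSPT2 stretch is chrX:51743292-51743441 on the plus strand, and the GSPT1 stretch is chr16:11915957-11916106 on the minus strand, before the second of the 2 GSPT1 starts listed.
GSPT2: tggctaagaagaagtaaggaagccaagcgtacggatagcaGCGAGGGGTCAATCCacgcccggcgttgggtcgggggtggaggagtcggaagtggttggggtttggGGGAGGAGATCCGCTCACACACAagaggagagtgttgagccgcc
GSPT1: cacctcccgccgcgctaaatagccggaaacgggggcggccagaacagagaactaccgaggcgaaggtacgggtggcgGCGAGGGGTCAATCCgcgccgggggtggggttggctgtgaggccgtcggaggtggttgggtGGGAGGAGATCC
The 2 shared runs were 15 and 23 bases long, and the second runs past the end of the GSPT1 stretch. In a local alignment of these windows, 114 of 143 columns matched (79.7%). The aligned part covered the 141 bases before the GSPT2 start, whereas in GSPT1 it ran from 103 bases before the start into the transcribed part. The GSPT2 window held 17 CpG dinucleotides, more than 54.0% of the 35116 start windows in the table, and the GSPT1 window shown here held 35, more than 85.9%. The window of the other GSPT1 start held 8, more than 39.3%, and matched GSPT2 over only 22 of 29 aligned columns. Motifs were searched on both strands. GGGCGG (45.0% of all windows) was found at the GSPT1 start shown here alone. CCGGAA (17.2%) was found at both GSPT1 starts and TATAAA (11.5%) at the other GSPT1 start, and neither was among the letters of the GSPT2 window. CCAAT (34.6%) was in none of the 3 windows.

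GSPT2 (ENSG00000189369, chromosome X, 51743442 to 51746232) was counted 361, 404 and 426 times in WT replicates 1 to 3 and had 0 counts in each of the 3 libraries labelled knockout. Scaled for depth with TMM factors (CPM), the WT values were 23.5, 24.0 and 26.1. The WT libraries were close together, and replicate 1 labelled knockout was no exception at 0. With 3 counts over the group in place of 0, a limit that covers counting error only, the level was at least 381-fold lower. Because the paralogs are similar, reads could in principle be counted on the wrong copy. In the libraries labelled knockout 0 counts fell on GSPT2 beside 20017 counts on GSPT1, which allows a share of up to 0.0150% of GSPT1 counts to have landed on GSPT2. The converse share could not be measured, since no library lacks GSPT1.

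**Figure D1:**
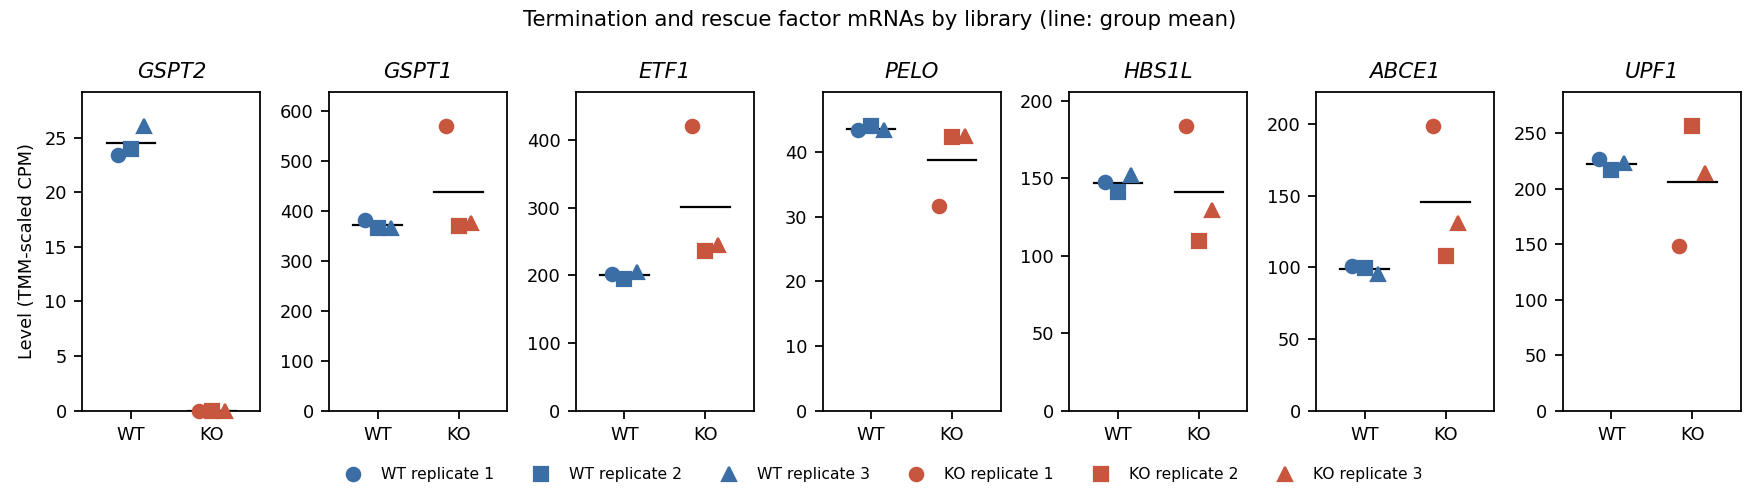
TMM-scaled CPM of the 7 genes in each library (circles, squares and triangles are replicates 1, 2 and 3; the line is the mean of 3 libraries; each panel has its own linear axis from 0). GSPT2 is at 0 in all 3 libraries labelled KO, and KO replicate 1 is the highest library for GSPT1, ETF1, HBS1L and ABCE1 and the lowest for PELO and UPF1.

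GSPT1 (ENSG00000103342, chromosome 16, 11868128 to 11916654) did not pass the test for a difference between the groups. In WT replicates 1 to 3 its reads numbered 5862, 6154 and 5956, and in the libraries labelled knockout 7705, 6071 and 6241. Scaled, these were 381, 366 and 365 CPM in WT and 569.8, 368 and 375 CPM in the other group. Replicate 1 labelled knockout was high, and replicates 2 and 3 lay within the WT range. The WT mean was 371 ± 9.22 CPM, and that of the other group was 438 ± 114 CPM. The log2 fold change was 0.24 ± 0.19 (SE), with a 95% interval from -0.21 to 0.69 and an edgeR adjusted p of 0.412. Without replicate 1 labelled knockout it was 0.013 ± 0.058, with an interval from -0.11 to 0.13 (edgeR adjusted p = 0.878). A GSPT1 rise of 0.092 on the log2 scale would restore the summed reads of the WT cells, and this value lies inside both intervals. Whether GSPT1 rose by that amount was thus not detectable with these libraries. The GSPT1 span overlaps the pseudogene COX6CP1, which had 4 to 22 counts per library.

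GSPT2 made up a small part of the reads of both paralogs in WT. It held 5.80%, 6.16% and 6.68% of the summed GSPT1 and GSPT2 counts in WT replicates 1 to 3 (95% Wilson intervals 5.25% to 6.41%, 5.60% to 6.77% and 6.09% to 7.31%, for counting error only). The reads lost with GSPT2 amounted to 24.5 CPM out of a WT sum of 395 ± 8.34 CPM. Transcript lengths were not used here, so these are shares of reads and not of molecules.

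The summed level was 405, 389.5 and 391 CPM in WT replicates 1 to 3, and 569.8, 368 and 375 CPM in replicates 1 to 3 labelled knockout. Replicates 2 and 3 labelled knockout lay below each WT library, and replicate 1 lay above each. The mean of the sum was thus 10.8% higher over all 3 libraries labelled knockout (438 ± 114 CPM) and fell by 5.88% without replicate 1 (372 CPM). No test was made of the sum, since it holds the gene chosen for its fall.

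**Figure D2:**
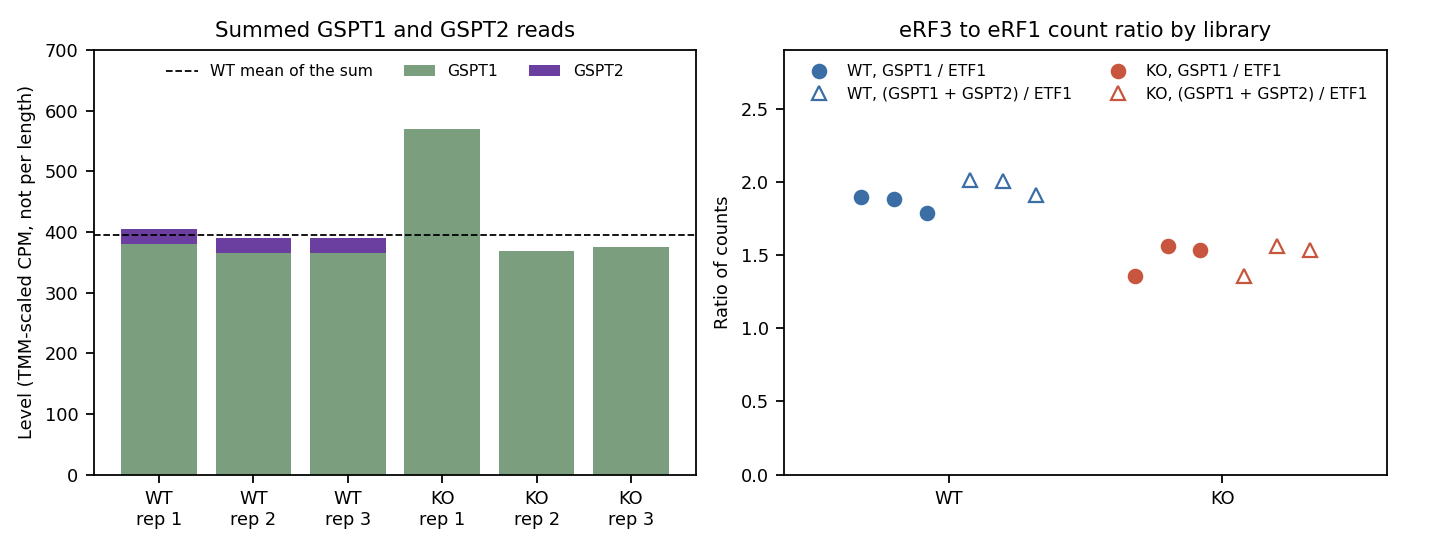
Left, GSPT1 and GSPT2 reads stacked for each library in TMM-scaled CPM, with the WT mean of the sum as a dashed line; right, the ratio of GSPT1 counts (filled circles) or GSPT1 plus GSPT2 counts (open triangles) to ETF1 counts in each library. GSPT2 is the thin upper part of the WT bars (5.80% to 6.68%), and all 3 ratios of the libraries labelled KO lie below the WT ratios.

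ETF1 (ENSG00000120705, chromosome 5, 138506095 to 138543236), the partner of eRF3, exceeded its WT range in all 3 libraries labelled knockout but did not pass the test over all 6 libraries. Its levels were 201, 194 and 204 CPM in WT replicates 1 to 3 and 421, 236 and 245 CPM in replicates 1 to 3 labelled knockout. The groups did not overlap, as in this direction for 23.5% of all genes tested. Replicate 1 labelled knockout lay far above the others. The means were 200.0 ± 5.18 and 301 ± 104 CPM. The log2 fold change came to 0.59 ± 0.24 (edgeR adjusted p = 0.131). Without that library ETF1 was called higher, at 0.27 ± 0.062 (edgeR adjusted p = 0.000847).

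The ratio of GSPT1 to ETF1 counts needs no scaling between libraries. It was 1.89, 1.88 and 1.78 in WT replicates 1 to 3 and 1.35, 1.56 and 1.53 in replicates 1 to 3 labelled knockout. In CPM, 47.6% of all genes tested had no overlap between groups, counting either direction. For this ratio each library labelled knockout was below each WT library, at a mean 20.0% lower. The difference was -0.32 on the log2 scale, with a two-sided exact permutation p of 0.1, the smallest that 3 against 3 libraries can give. It was -0.26 without replicate 1 labelled knockout. With GSPT2 counts added, as a description, the WT ratios ran from 1.91 to 2.01. In replicates 2 and 3 labelled knockout the lower ratio came with GSPT1 levels inside the WT range and ETF1 levels above it.

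ABCE1 (ENSG00000164163, chromosome 4, 145098311 to 145129524), which recycles ribosomes after termination and after rescue, followed the pattern of ETF1. It stood at 101, 99.4 and 95.6 CPM in WT replicates 1 to 3 and at 199, 108 and 131 CPM in replicates 1 to 3 labelled knockout. The groups did not overlap, again as for 23.5% of all genes in this direction. The log2 fold change was 0.56 ± 0.23 (edgeR adjusted p = 0.136), and it was 0.28 ± 0.080 without replicate 1 labelled knockout, where ABCE1 was called higher (edgeR adjusted p = 0.00563). ABCE1 shares 261 bases of its span with ANAPC10, which had 30 to 52 counts per library.

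Neither gene of the rescue pair passed the test over all 6 libraries. HBS1L (ENSG00000112339, chromosome 6, 134960378 to 135054822) was at 148, 141 and 152 CPM in WT replicates 1 to 3 and at 184, 109 and 129 CPM in replicates 1 to 3 labelled knockout. Replicate 1 labelled knockout was above and replicates 2 and 3 were below each WT library. The log2 fold change was -0.062 ± 0.20 over all 6 libraries (edgeR adjusted p = 0.855). Without replicate 1 labelled knockout HBS1L was called lower, at -0.29 ± 0.076 (edgeR adjusted p = 0.00300). The gene also makes a shorter splice form that bridges the Ski complex and the RNA exosome, and these counts do not separate the forms. MIR3662, which lies within its span, had at most 6 counts per library.

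PELO (ENSG00000152684, chromosome 5, 52787916 to 52804044) was at 43.4, 44.0 and 43.3 CPM in WT replicates 1 to 3 and at 31.6, 42.2 and 42.4 CPM in replicates 1 to 3 labelled knockout. All 3 of the latter were below the WT libraries, although replicates 2 and 3 lay close to them. The log2 fold change was -0.17 ± 0.16 (edgeR adjusted p = 0.484) and -0.035 ± 0.087 without replicate 1 labelled knockout (edgeR adjusted p = 0.780). The whole PELO span lies within that of ITGA1, an integrin gene with 193 to 421 counts per library, and 12898 bases of it lie within PELO-AS1. The sources used here do not give how reads on shared bases were assigned, so the PELO level is uncertain.

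UPF1 (ENSG00000005007, chromosome 19, 18831959 to 18868230) did not pass the test in either form of the comparison. It was at 226, 217 and 224 CPM in WT replicates 1 to 3 and at 148, 257 and 214 CPM in replicates 1 to 3 labelled knockout. Of the latter, replicate 2 was above and replicates 1 and 3 were below the WT libraries. The log2 fold change was -0.11 ± 0.20 (edgeR adjusted p = 0.739), and 0.089 ± 0.070 without replicate 1 labelled knockout (edgeR adjusted p = 0.320).

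Over the 6 genes other than GSPT2, 0 were called by edgeR at an adjusted p under 0.05, beside 15.1% of all genes tested (8.64% higher and 6.50% lower). DESeq2 and limma-voom also called 0. Over all genes DESeq2 called 10.4% of 35856, a set that includes genes of low counts, and limma-voom called 15.1%. At an unadjusted edgeR p under 0.05 there were 2 higher, ETF1 and ABCE1, and 0 lower, beside 18.2% and 15.0% of all genes. Levels of the groups did not overlap for 2 genes in the higher direction (23.5% of all genes) and for 1, PELO, in the lower direction (24.1%, or 47.6% in either direction). Without replicate 1 labelled knockout 2 genes were called higher and 1 lower, beside 22.3% and 21.7% of all genes, or 44.0% in either direction. Replicate 1 labelled knockout was the highest of the 6 libraries for 4 of these genes and the lowest for 2. It was the highest for 36.0% and the lowest for 38.2% of all genes tested. 

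The wider machinery was described with 9 lists that held 141 further genes, of which 134 were tested. Of these, 11 were called higher and 5 lower by edgeR, and 118 did not pass, where 8.64% and 6.50% of all genes were called. Scaled by library totals alone, the split was 7 higher and 8 lower, where 14.1% of all genes were called in either direction. The median log2 fold change was -0.022, beside 0.0055 over all genes tested. Without replicate 1 labelled knockout, 30 were called higher and 36 lower, beside 22.3% and 21.7% of all genes. All 16 called genes kept their call in that fit, which calls 44.0% of all genes. Only TOB1 kept it without WT replicate 1, 2 or 3, and only SKIC3 and TOB1 without replicate 3 labelled knockout.

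Among 3 listed genes for the modification of release factors, 1 was called higher and 0 lower, beside 8.64% and 6.50% of all genes. It was N6AMT1, the catalytic subunit of the methyltransferase that modifies eRF1 with TRMT112. Its level was 7.93, 10.3 and 11.3 CPM in WT replicates 1 to 3 and 19.4, 15.1 and 16.1 CPM in replicates 1 to 3 labelled knockout (a log2 difference of 0.77 ± 0.20, edgeR adjusted p = 0.0435; 0.67 ± 0.15 without replicate 1). TRMT112 and JMJD4, which hydroxylates eRF1, did not pass. Of 6 mitochondrial release and rescue factors, 1 was called higher and 0 lower, beside the same 8.64% and 6.50% of all genes. This was MRPL58, a peptidyl-tRNA hydrolase built into the mitochondrial ribosome. It rose from 26.1 to 47.1 CPM on average (0.85 ± 0.17, edgeR adjusted p = 0.0190, and 0.99 ± 0.096 without replicate 1 labelled knockout), and the other 5 did not pass.

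Of 22 tested genes of ribosome rescue and quality control, 1 was called in each direction, beside 8.64% of all genes higher and 6.50% lower. ZNF598, the ubiquitin ligase that marks collided ribosomes, was at 140.2, 139 and 141 CPM in WT replicates 1 to 3 and at 59.6, 99.4 and 87.6 CPM in replicates 1 to 3 labelled knockout (a log2 difference of -0.77 ± 0.20, edgeR adjusted p = 0.0431). Without replicate 1 the ZNF598 difference was -0.57 ± 0.073. NPLOC4, an adaptor of the VCP unfoldase, was higher, at 172 to 184 CPM in WT against 256 to 259 CPM (0.54 ± 0.12, edgeR adjusted p = 0.0250, and 0.55 ± 0.062 without replicate 1). Of 4 tested recycling and reinitiation factors, 0 were called by edgeR over all 6 libraries, beside 15.1% of all genes. At an unadjusted edgeR p under 0.05, 1 was higher, beside 18.2% of all genes. Without replicate 1 labelled knockout 2 were called higher, beside 22.3% of all genes. The smallest p over all 6 libraries belonged to EIF3J, which helps to release the small ribosomal subunit. It was at 57.4, 59.4 and 63.6 CPM in WT replicates 1 to 3 and at 129, 68.5 and 83.6 CPM in the other group, with no overlap (0.64 ± 0.24, edgeR adjusted p = 0.110). Of all genes, 23.5% had no overlap in this direction. EIF3J was called higher without replicate 1 labelled knockout (0.35 ± 0.088, edgeR adjusted p = 0.00226) and without replicate 2 (0.82, edgeR adjusted p = 0.0462).

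Among 21 nonsense-mediated decay factors 2 were called higher and 2 lower, beside 8.64% and 6.50% of all genes. SMG5, an adaptor that binds phosphorylated UPF1, was lower, at 329 to 342 CPM in WT against 232 to 247 CPM (a log2 difference of -0.49 ± 0.12, edgeR adjusted p = 0.0331). EIF4A3, the helicase core of the exon junction complex, was higher at 0.72 ± 0.16. The RNA helicase MOV10, a UPF1 partner, was lower at -1.29 ± 0.25 (edgeR adjusted p = 0.0278 and 0.0172). Without replicate 1 labelled knockout the difference was -0.48 ± 0.061 for SMG5, 0.86 ± 0.063 for EIF4A3 and -1.03 ± 0.069 for MOV10. Of 27 transcripts known as targets of this decay, 0 were called by edgeR over all 6 libraries, beside 15.1% of all genes. Without replicate 1 labelled knockout 6 were called higher and 6 lower, beside 22.3% and 21.7% of all genes. At an unadjusted edgeR p under 0.05 over all 6, 1 was higher and 2 were lower, beside 18.2% and 15.0% of all genes. Their median log2 fold change was -0.25, and 0.037 without replicate 1 labelled knockout. Counts were per gene and do not separate splice forms, so they do not measure the decay itself. ATF4, with the smallest p over all 6 libraries, encodes a stress-response transcription factor and was at 838 to 866 CPM in WT and at 267, 581 and 571 CPM in replicates 1 to 3 labelled knockout (-0.85 ± 0.29, edgeR adjusted p = 0.0860). It was called lower without replicate 1 labelled knockout (-0.56 ± 0.052, edgeR adjusted p = 4.40e-09), with DESeq2 (adjusted p = 0.0314) and in edgeR without a filter on low counts (adjusted p = 0.0158).

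**Figure D3:**
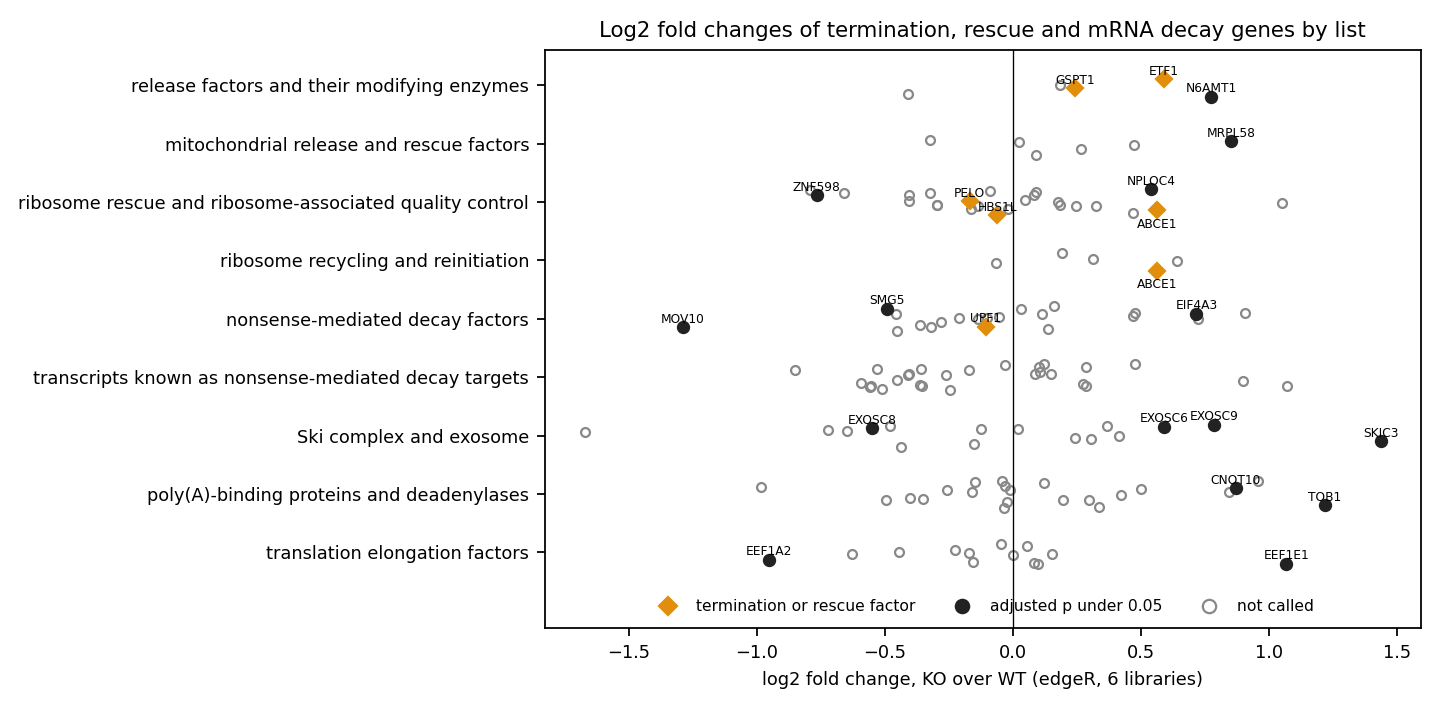
Log2 fold changes (labelled KO over WT, edgeR, 6 libraries) of the tested genes of 9 lists, 1 row per list, with 1 decay factor not shown, with points moved vertically only for legibility; diamonds are the 6 genes described above other than GSPT2, filled circles passed an adjusted p of 0.05 and open circles did not. Called genes lie on both sides of 0 in the lists of ribosome rescue, decay factors, the Ski complex and exosome, and elongation factors.

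The Ski complex feeds mRNAs from stalled ribosomes into the exosome. Of 16 listed genes, those of these complexes and XRN1, 3 were called higher and 1 lower, beside 8.64% and 6.50% of all genes. SKIC3, the scaffold of the Ski complex, was at 65.9, 68.4 and 67.0 CPM in WT replicates 1 to 3 and at 246, 143 and 156 CPM in replicates 1 to 3 labelled knockout (a log2 difference of 1.44 ± 0.22, edgeR adjusted p = 0.00782, and 1.16 ± 0.072 without replicate 1). SKIC2 and SKIC8, the other Ski complex genes listed, did not pass, at -1.67 and 0.019 (edgeR adjusted p = 0.346 and 0.94). The exosome subunit genes EXOSC9 (0.79 ± 0.17) and EXOSC6 (0.59 ± 0.14) were higher, and EXOSC8 was lower (-0.55 ± 0.13). In the fit without replicate 1 labelled knockout these were 0.64 ± 0.082, 0.64 ± 0.081 and -0.52 ± 0.087. Of 22 tested genes of poly(A)-binding proteins and deadenylation, to which eRF3 is linked through PABPC1, 2 were called higher and 0 lower. Over all genes the shares were 8.64% and 6.50%. TOB1, which brings the CCR4-NOT deadenylase to poly(A)-binding protein, was at 25.7, 27.5 and 23.3 CPM in WT replicates 1 to 3 and at 68.8, 54.5 and 54.5 CPM in replicates 1 to 3 labelled knockout (1.22 ± 0.16, edgeR adjusted p = 0.00420, and 1.10 ± 0.094 without replicate 1). CNOT10, a CCR4-NOT subunit gene, was higher at 0.87 ± 0.23 (edgeR adjusted p = 0.0466) and at 0.57 ± 0.077 without replicate 1. Among 13 tested elongation factor genes 1 was called in each direction, beside 8.64% of all genes higher and 6.50% lower. EEF1A2, a GTPase relative of eRF3, was lower, at 394 to 424 CPM in WT against 139 to 253 CPM (-0.95 ± 0.23, edgeR adjusted p = 0.0361). EEF1E1, a scaffold of the aminoacyl-tRNA synthetase complex, was higher at 1.07 ± 0.22 (edgeR adjusted p = 0.0200). Without replicate 1 the differences were -0.71 ± 0.061 for EEF1A2 and 0.93 ± 0.16 for EEF1E1.

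The loss of GSPT2 reads was not shared by all genes beside it on the X chromosome. Of the 8 nearest protein-coding genes on each side, 6 were tested, and 8 of the 16 had 0 counts in all 6 libraries. On the side of lower coordinates NUDT10, NUDT11 and EZHIP did not pass, with or without replicate 1 labelled knockout. Their log2 fold changes were 0.067, 0.036 and 0.048 over all 6 libraries and 0.16, 0.029 and 0.25 without it. NUDT11, which begins 253 kb away and encodes a diphosphoinositol polyphosphate phosphatase, ranged from 46.1 to 48.8 CPM in WT and from 47.4 to 49.5 CPM in the other group. On the other side MAGED1, which begins 59.6 kb away, was called lower but kept most of its reads, at 321 to 340 CPM in WT and 168 to 235 CPM (log2 fold change -0.68 ± 0.16, edgeR adjusted p = 0.0297, and -0.55 ± 0.063 without replicate 1). MAGED4 was called lower (-1.85 ± 0.27, edgeR adjusted p = 0.00598), and its near-identical copy MAGED4B was at -1.21 ± 0.39 (edgeR adjusted p = 0.0795). Both copies were called lower without replicate 1 labelled knockout, at -1.72 ± 0.26 and -1.71 ± 0.26. How reads divide between these copies is uncertain. Over 568 tested genes on the X chromosome 8.63% were called higher and 7.04% lower, beside 8.64% and 6.50% of all genes. Without replicate 1 the X chromosome shares were 25.7% and 19.3%, beside 22.3% and 21.7%.

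**Figure D4:**
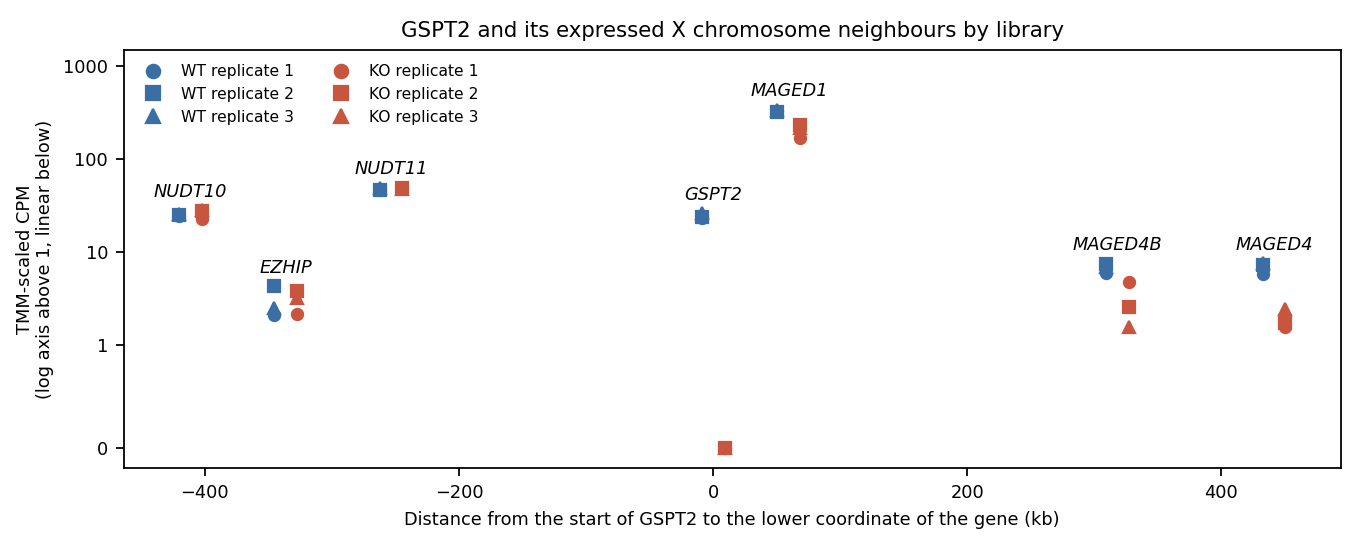
TMM-scaled CPM of GSPT2 and of its 6 tested X chromosome neighbours in each library, against the distance in kb from the GSPT2 start to the lower coordinate of each gene (the level axis is logarithmic above 1 CPM and linear below; groups are offset sideways). The KO libraries are at 0 for GSPT2 alone among these 7 genes.

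Genes with the pattern most like GSPT2 were sought among 13109 tested genes with at least 2 CPM in each WT library, by Pearson's correlation of log2 CPM over the 6 libraries, which share the same group difference. The 6 closest were CSAG3, SFRP1, CT45A10, ZNF334, LINC03046 and HSPB8, each with r of at least 0.99968. The first 5 had 0 counts in each library labelled knockout, whereas HSPB8 had 56 to 65 counts there and 371 to 413 in WT. In all, 120 genes had r above 0.99. Of the 13109 genes, 16 had 0 counts in each library labelled knockout. Only SFRP1 among them had a mean WT level in CPM at or above that of GSPT2.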

How the data were processed

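Per the submitters' processing notes, FastQC 0.11.9, HISAT2 2.2.1, HTSeq 0.12.4, SAMtools 1.3.1, bedtools 2.30.0, DESeq2 and the GRCh38 build were used. The sources used here do not give the counting options or strand setting. The deposited gene tables hold raw counts. Reads in no feature (8.75% to 15.9% of counted reads) and ambiguous reads (9.74% to 12.5%) entered neither library sizes nor tests. The deposited mitochondrial coverage was not used. Symbols came from a table of Ensembl identifiers, positions and start sequences from RefSeq (GRCh38.p14). Transcript lengths were not used here, so a sum per kb that had been planned is given in CPM instead.

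All genes were tested together with edgeR 4.0.16 (R 4.3.3), using TMM scaling, filterByExpr and the quasi-likelihood test of group with no covariate; p-values were Benjamini-Hochberg adjusted over all genes and called under 0.05. The SE of a log2 fold change is its size over the root of F. The log2 levels behind correlations used a prior count of 2. Alternatives were DESeq2 1.42.0, limma-voom (limma 3.58.1), other scalings and filters, a replicate block, and fits without each library in turn. The genes and lists were chosen with earlier results of these data known. Named were the 7 genes, up to 3 called genes per direction of each list (otherwise that of smallest p), expressed or called X chromosome neighbours (at least 1 CPM in a library), the 6 genes most like GSPT2 and annotated genes that overlap any of the 7. The fit was tested on simulated data, drawn gene by gene and thus without a library that stands apart as here. There it recovered most 4-fold changes but few 2-fold changes. A gene that was not called may thus still have changed. The values of 1 called decay factor that the rule names are not reported here.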

Additional observations from a re-analysis of the deposited data

How the results depend on the processing

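GSPT1 was not called under any of the 13 alternatives, and its log2 fold change stayed above 0, from 0.013 to 0.35. DESeq2 gave 0.23, limma-voom 0.21, library totals alone 0.13 and the replicate block 0.21. Of the 6 genes other than GSPT2, 0 were called in the alternatives that kept all libraries, and leaving out single libraries gave 0 to 3. The 3 calls came without replicate 1 labelled knockout. With single libraries left out, the log2 fold change ran from -0.29 to 0.095 for HBS1L and from -0.29 to 0.089 for UPF1; the sign turned for HBS1L without replicate 2 and for UPF1 without replicate 1 labelled knockout, and the cause was not tested. The 16 called list genes became 1 to 66 with single libraries left out: 1 without any 1 WT library, 66 without replicate 1, 16 without replicate 2 and 2 without replicate 3 labelled knockout. Calls over all genes moved too, from 15.1% to between 3.54% and 3.69% without a WT library, and to 44.0%, 14.9% and 6.48% without replicates 1, 2 and 3 labelled knockout. The list calls became 3 with the replicate block (MOV10, SKIC3 and TOB1), where 5.55% of all genes were called. With DESeq2 the list calls became 22, where 10.4% of 35856 genes were called, a set that includes genes of low counts. Replicate numbers did not pair the libraries: deviations of equal numbers correlated at -0.058, -0.029 and 0.0022. The log2 change of the summed GSPT1 and GSPT2 level was 0.15, and -0.087 to 0.26 with single libraries left out. The GSPT1 to ETF1 ratio differed by -0.36 to -0.26 in the same settings; a ratio per kb was not run. Of 299 values of single genes under the alternatives, 201 kept direction and side of the threshold, 88 lost the call, 8 gained it and 2 turned sign. With 3 libraries a group and 1 that stands apart, the 95% interval of GSPT1 over all 6 libraries spans -0.21 to 0.69.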
